A study of Mus musculus with 2 samples.

Results

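The transcripts of 10 genes that write, maintain or erase DNA methylation, or that belong to the chromatin regulators mutated in clonal haematopoiesis, were followed in single haematopoietic stem and progenitor cells with and without deletion of Trmt6. The genes were taken by symbol from the gene lists of both libraries, and all 10 of the 10 symbols were found among 27998 measured genes. They are the methyltransferases Dnmt1, Dnmt3a and Dnmt3b, the maintenance factor Uhrf1, the erasers Tet1, Tet2 and Tet3, and, beside them, 3 genes that neither write nor erase DNA methylation: the histone methyltransferase Ezh2, the chromatin factor Asxl1 and Idh3b, a subunit of mitochondrial isocitrate dehydrogenase. Lineage-depleted marrow of 3-month-old mice was sorted on c-Kit and Sca-1 (Lin- Sca-1+ c-Kit+, LSK, the fraction that holds stem and multipotent progenitor cells). There was 1 library per genotype. The labels give Trmt6fl/fl for the WT library and Trmt6fl/fl, MX1-cre for the cKO library, so by the labels both carry the floxed Trmt6 allele and the WT library lacks the recombinase. The study's text goes against the labels here: it describes the controls of the single-cell experiment as Trmt6+/+ Mx1-Cre, without the floxed allele and with the recombinase, and its methods name a cross that gave Trmt6fl/+ Mx1-Cre mice. The study's text places Mx1-Cre, which interferon switches on in blood cells and in other tissues, and injections of the interferon inducer pIpC in mice of both genotypes. How many mice were pooled into a library is not stated in the sources used here. Genotype and library, and the recombinase and floxed allele according to which source is right, cannot be told apart, and no difference given here has a replicate check.

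DNA methylation in mammals sits mostly on the cytosine of CpG pairs. Dnmt3a and Dnmt3b place it on unmethylated DNA, whereas Dnmt1, guided by Uhrf1 to the hemimethylated CpG pairs left behind the replication fork, copies the pattern onto the new strand. TET dioxygenases oxidise methylcytosine and so start its removal, with alpha-ketoglutarate as co-substrate. Ezh2 is the catalytic subunit of Polycomb repressive complex PRC2, which methylates histone H3 at lysine K27, and Asxl1 is a cofactor of the BAP1 deubiquitinase complex. DNMT3A, TET2 and ASXL1 are the genes most often mutated in human clonal haematopoiesis, and loss of Dnmt3a or Tet2 in mice extends the self-renewal of haematopoietic stem cells (HSCs).

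Unique molecular identifiers (UMIs) tag single captured transcripts. The 8869 barcodes of the WT library carried 47991455 UMIs and the 9260 of the cKO library 98323201. Filters and a doublet score left 8145 WT cells (median 4149 UMIs) and 8482 cKO cells (median 9992 UMIs), and 24 barcodes occurred in both libraries. Levels are UMIs summed over cells and scaled to 1000000 UMIs of all genes (CPM), and a log2 ratio is cKO over WT. Intervals in parentheses are 95% intervals that cover counting error only. Trmt6 itself, the deleted gene, stood at 63.2 CPM in WT cells against 50.4 CPM in cKO cells (log2 ratio -0.33, -0.40 to -0.26). Where the deletion lies relative to these 3-prime tags is not given in the sources used here, so this count is no check of the deletion. Transcripts of the sorting antigens were unequal: Ly6a, which encodes Sca-1, had 35.0 CPM in WT but 141 CPM in cKO, and Kit had 64.3 and 21.8 CPM. Marker lists of other cell types also differed. All 10 neutrophil markers were lower in cKO, with a summed level of 5627 against 8.06 CPM and Mmp8 and Cd177 at 0, and so were all 5 GMP markers (granulocyte-monocyte progenitors), summed at 6551 against 742 CPM. The part of these differences in the ratios below was not tested, but ratios are also given within gates and in the cells that passed no gate.

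Over all kept cells, Tet2 and Tet3 were lower and Dnmt3b was higher in the cKO library by at least 0.5 on the log2 scale, the fold used here to call a difference. Of 9162 genes that reached 5 CPM in either library, 8.97% were higher by that fold and 17.7% lower. The 1 higher and 2 lower of 10 genes thus came close to the shares of all genes, and the median log2 ratio of the 10 was -0.23 against -0.07 for all genes. The number of genes called is therefore no result about these 10. With size factors in place of totals, 12.9% of all genes were higher and 13.2% lower, and the calls on the 10 genes stayed the same.

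**Figure D1:**
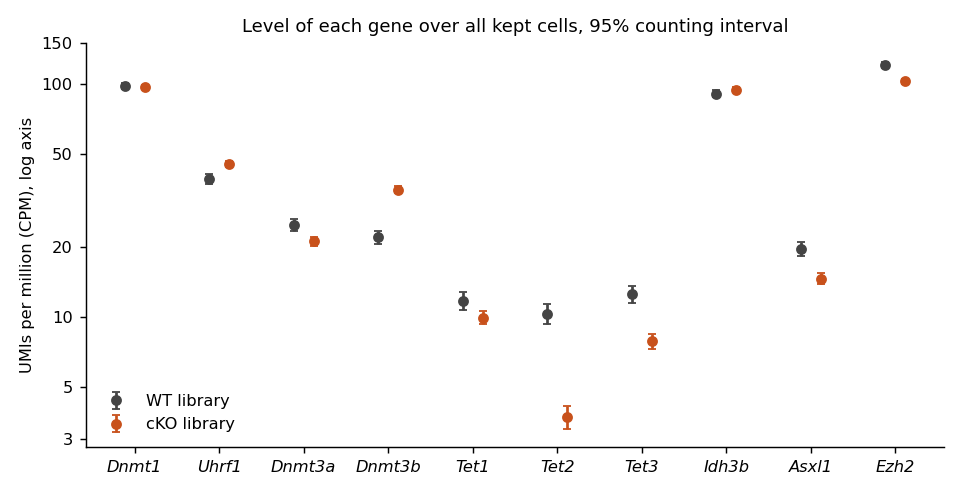
Level of each of the 10 genes in CPM (log axis) over all kept cells of the WT and cKO libraries, with bars for the 95% counting interval. Tet2 is the gene with the widest gap, 10.3 against 3.72 CPM, while the Dnmt1 points overlap at 97.8 and 96.7 CPM.

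The maintenance pair was expressed at nearly the same level in both libraries. Dnmt1 (minus strand of chromosome 9, 20907209 to 20959888, GRCm38) stood at 97.8 CPM (94.8 to 100.8) in WT cells against 96.7 CPM (94.6 to 98.8) in cKO cells (log2 ratio -0.02, -0.07 to 0.04). Uhrf1 (plus strand of chromosome 17, 56303321 to 56323486) stood at 39.0 CPM (37.2 to 41.0) in WT cells against 45.2 CPM (43.8 to 46.6) in cKO cells (log2 ratio 0.21, 0.13 to 0.29). With totals as the scale, Dnmt1 therefore could not be told from equal, and Uhrf1 was slightly higher in cKO but under the fold used for a call.

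Of the de novo enzymes, Dnmt3b was higher in cKO by the called fold and Dnmt3a was under the fold. Dnmt3a (plus strand of chromosome 12, 3806007 to 3914443) stood at 24.8 CPM (23.3 to 26.4) in WT cells against 21.2 CPM (20.2 to 22.2) in cKO cells (log2 ratio -0.23, -0.34 to -0.12). Dnmt3b (plus strand of chromosome 2, 153649450 to 153687730) stood at 22.0 CPM (20.6 to 23.4) in WT cells against 35.2 CPM (34.0 to 36.5) in cKO cells (log2 ratio 0.68, 0.57 to 0.79), and 94.8% of the tested genes had a lower ratio. On cells thinned to an equal depth of 2000 UMIs, Dnmt3b was seen in 4.55% (4.10 to 5.03) of the WT and 6.77% (6.24 to 7.33) of the cKO cells. For Dnmt3a these shares were 5.24% (4.76 to 5.75) and 4.40% (3.98 to 4.87).

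Of the 3 erasers, Tet2 and Tet3 were lower in the cKO library by the called fold, and Tet1 stayed under it. Tet2 (minus strand of chromosome 3, 133463679 to 133545139) was counted with 433 UMIs in WT and 323 in cKO, at 10.3 CPM (9.37 to 11.3) and 3.72 CPM (3.33 to 4.15). Its log2 ratio was -1.47 (-1.68 to -1.26), and 2.61% of the tested genes had a lower one. At 2000 UMIs per cell, Tet2 was seen in 2.38% (2.06 to 2.74) of the WT and 0.82% (0.64 to 1.04) of the cKO cells. On all UMIs the shares were 4.97% and 3.69%, although the cKO cells were the deeper ones. Tet3 (minus strand of chromosome 6, 83362373 to 83459084) stood at 12.5 CPM (11.5 to 13.6) in WT cells against 7.88 CPM (7.30 to 8.50) in cKO cells (log2 ratio -0.67, -0.83 to -0.50). Tet1 (minus strand of chromosome 10, 62804570 to 62908996) stood at 11.7 CPM (10.7 to 12.8) in WT cells against 9.96 CPM (9.31 to 10.6) in cKO cells (log2 ratio -0.23, -0.39 to -0.07). The intervals of the 3 ratios show Tet2 below Tet3 and Tet3 below Tet1 without overlap. Tet1 and Tet3 each overlap other annotated genes on their own strand, so their counts may hold reads of those genes or lack reads shared with them.

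Of the remaining 3 genes, none passed the fold. Idh3b (minus strand of chromosome 2, 130279309 to 130284547) stood at 90.8 CPM (87.9 to 93.7) in WT cells against 94.5 CPM (92.4 to 96.5) in cKO cells (log2 ratio 0.06, 0.00 to 0.11). Asxl1 (plus strand of chromosome 2, 153345829 to 153404007) stood at 19.5 CPM (18.2 to 20.9) in WT cells against 14.6 CPM (13.8 to 15.5) in cKO cells (log2 ratio -0.42, -0.54 to -0.29). Ezh2 (minus strand of chromosome 6, 47530139 to 47595341) stood at 120.3 CPM (117.1 to 123.7) in WT cells against 102.3 CPM (100.2 to 104.5) in cKO cells (log2 ratio -0.23, -0.28 to -0.18). Asxl1 and Ezh2 were thus lower beyond counting error by less than the called fold, and Idh3b was all but level.

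The promoters of the genes at both ends of this order are shown because CpG pairs are the substrate of these enzymes. Each run holds the 250 bases before an annotated start site, 5′ to 3′ on the strand of the gene (RefSeq, GRCm38.p6), with every CG in capitals. Where a gene has several start sites, the one with the most CG is shown.
Tet2, chr3:133544391-133544640, minus strand: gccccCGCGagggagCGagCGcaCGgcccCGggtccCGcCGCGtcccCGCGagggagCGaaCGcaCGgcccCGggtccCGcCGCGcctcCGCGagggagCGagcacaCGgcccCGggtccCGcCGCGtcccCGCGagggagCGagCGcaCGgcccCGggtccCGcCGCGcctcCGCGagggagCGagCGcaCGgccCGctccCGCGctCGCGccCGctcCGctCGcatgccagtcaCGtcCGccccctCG
Dnmt3b, chr2:153649199-153649448, plus strand: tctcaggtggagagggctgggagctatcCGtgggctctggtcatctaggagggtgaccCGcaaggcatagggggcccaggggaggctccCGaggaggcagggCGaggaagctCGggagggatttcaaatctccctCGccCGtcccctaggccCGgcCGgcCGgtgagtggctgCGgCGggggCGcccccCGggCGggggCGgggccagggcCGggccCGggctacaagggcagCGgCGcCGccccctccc
Uhrf1, chr17:56304063-56304312, plus strand: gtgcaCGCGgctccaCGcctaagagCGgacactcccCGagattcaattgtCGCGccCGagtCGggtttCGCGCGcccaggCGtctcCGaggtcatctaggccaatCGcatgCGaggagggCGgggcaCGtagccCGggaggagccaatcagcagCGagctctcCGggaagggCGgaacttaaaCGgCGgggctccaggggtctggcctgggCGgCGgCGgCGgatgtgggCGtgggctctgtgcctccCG
The Tet2 run holds 51 CG, the Dnmt3b run 21 and the Uhrf1 run 30. In the full windows of 300 bases (250 before to 50 after the start), Tet2 had 57 CG and 99.8% of 32851 mouse promoters had fewer, against a median of 7. Dnmt3b had 30 and Uhrf1 33, with 88.3% and 91.4% of promoters below them. Over the 15 windows of the 10 genes the number ran from 2, at a distal start site of Dnmt1, to the 57 of Tet2. The files hold no methylation measurement, so nothing can be read about the methylation of these CG.

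Cell cycle phase was called per cell from S and G2/M gene lists, from which Uhrf1 had been removed, on cells thinned to 2000 UMIs. G1 was called in 3989 WT and 3952 cKO cells, S in 1677 and 2323, and G2/M in 2274 and 2102. The phases differed in depth as well, with median UMIs of 3143, 5494 and 6376 in G1, S and G2/M of WT and 8244.5, 10995 and 11986 in cKO. In S phase cells of the WT library, Uhrf1, Dnmt1 and Ezh2 were higher than in G1 by more than 1 on the log2 scale. They are 3 of 10 genes, against 3.91% of all tested genes.

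Uhrf1 had the widest swing. Its level was 20.8 CPM in G1, 85.0 CPM in S and 26.3 CPM in G2/M of the WT library, and 30.4, 83.0 and 26.6 CPM in the cKO library. S over G1 gave a log2 ratio of 2.03 (1.84 to 2.22) in WT and 1.45 (1.34 to 1.56) in cKO. The levels in S could not be told apart between the libraries, and both fell back by G2/M. Dnmt1 stood at 63.8, 145.1 and 98.2 CPM in G1, S and G2/M of WT, and at 72.2, 131.8 and 94.1 CPM in cKO. Its S over G1 log2 ratio was 1.19 (1.07 to 1.31) in WT and 0.87 (0.79 to 0.94) in cKO, and the levels stayed above G1 in G2/M. Ezh2 stood at 69.4, 141.8 and 151.8 CPM in WT and at 70.6, 132.7 and 114.2 CPM in cKO. Its S over G1 log2 ratio was 1.03 (0.91 to 1.15) in WT and 0.91 (0.83 to 0.98) in cKO, and its WT level did not fall in G2/M. In the cKO library only Uhrf1 passed 1, where 2.46% of all tested genes did. Depth moved with these ratios, and its part was not tested. The calls at 1 depended on how phases were set: at 1000 UMIs per cell the WT ratios were 0.97 for Dnmt1 and 0.93 for Ezh2, and with phases on all UMIs the cKO ratios were 1.11 and 1.18.

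**Figure D2:**
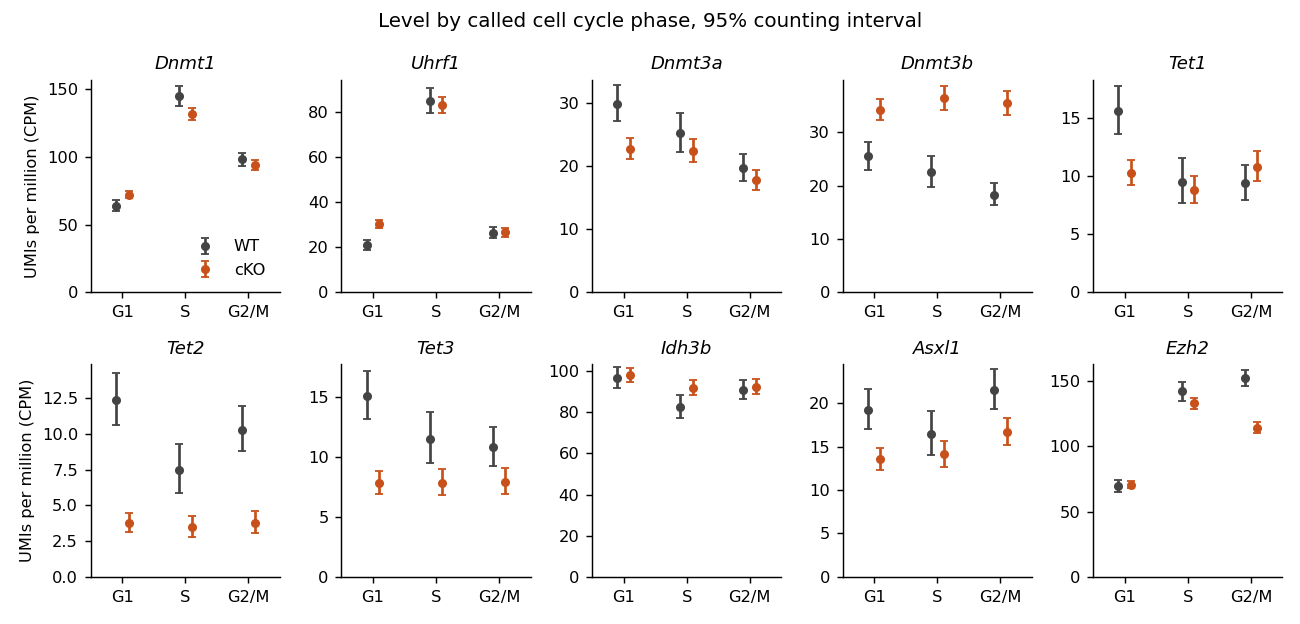
Level in CPM of each gene in cells called G1, S and G2/M, for the WT and cKO libraries, with bars for the 95% counting interval and every axis from 0. Dnmt1, Uhrf1 and Ezh2 stand higher in S than in G1 in both libraries, and the cKO points of Tet2 lie below the WT points in all 3 phases.

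Promoter windows of the 10 genes were searched on both strands for the E2F letters TTTCCCGC and TTTGGCGC, since E2F factors are known regulators of S phase genes. Of 32851 promoters of 300 bases, 1.07% held the first, 0.514% the second and 1.56% either one. Among the 15 windows of the 10 genes a match was found in Dnmt1 and in Ezh2, once each, and none in the 2 windows of Uhrf1. The 30 bases around each match are shown with the match in capitals, 5′ to 3′ on the strand of the gene.
Dnmt1, chr9:20952574-20952603, minus strand: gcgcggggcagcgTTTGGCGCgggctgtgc
Ezh2, chr6:47595009-47595038, minus strand: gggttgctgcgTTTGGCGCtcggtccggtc
The match begins at base 284 of the window of 300 bases in Dnmt1 and at base 254 in Ezh2, past the start site in both. These are matches of letters and carry no measurement of binding.

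None of the other 7 genes had a higher level in S than in G1 cells of the WT library, with log2 ratios from -0.72 to -0.18. Tet1 fell from 15.6 CPM in G1 to 9.46 CPM in S, a log2 ratio of -0.72 (-1.08 to -0.37), and Tet2 from 12.4 to 7.45 CPM, also -0.72 (-1.13 to -0.34). In the cKO library Tet1 was at 10.3 CPM in G1 and 8.78 CPM in S, with a log2 ratio of -0.23 (-0.47 to 0.02). For Tet2 in cKO the levels were 3.78 and 3.50 CPM and the log2 ratio was -0.11 (-0.51 to 0.29). Dnmt3b stood at 25.5 CPM in G1, 22.5 CPM in S and 18.3 CPM in G2/M of WT, and at 34.3, 36.4 and 35.4 CPM in cKO. Its WT level in G2/M was below that in G1, with a log2 ratio of -0.48 (-0.70 to -0.26), while in cKO the same ratio was 0.05 (-0.08 to 0.17).

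Within phases, Tet2 was lower in cKO each time. Its log2 ratio was -1.71 (-2.05 to -1.38) in G1, -1.09 (-1.54 to -0.64) in S and -1.44 (-1.82 to -1.08) in G2/M. Tet3 had ratios of -0.95 (-1.21 to -0.68), -0.55 (-0.88 to -0.21) and -0.45 (-0.74 to -0.15) in the same order. Dnmt3b had 0.42 (0.25 to 0.60), 0.69 (0.48 to 0.90) and 0.95 (0.77 to 1.15), so its gap was widest in G2/M. For Tet1 the ratio was -0.60 (-0.85 to -0.35) in G1 and 0.20 (-0.08 to 0.50) in G2/M, which leaves a difference beyond counting error in G1 alone, since in S its ratio of -0.11 (-0.45 to 0.25) also spanned 0. Uhrf1 was higher in cKO G1 cells by 0.54 (0.36 to 0.73) and not detectably different in S (-0.04, -0.15 to 0.08) or G2/M (0.02, -0.16 to 0.19). Hells, Cdca7 and Pcna, which belong to the S gene list, were also higher in cKO G1 cells, at 0.88, 0.84 and 0.32. In S cells their ratios were 0.20, 0.21 and -0.10. How alike the cells called G1 are in the 2 libraries was not tested. Ezh2 was lower in cKO G2/M cells, at -0.41 (-0.49 to -0.33), while in G1 its ratio of 0.02 (-0.08 to 0.13) spanned 0 and rose to 0.13 with scores per library and to 0.20 with size factors fitted within G1.

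Counted by phase, 1 gene (Uhrf1) was higher and 4 (Tet1, Tet2, Tet3 and Asxl1) were lower by at least 0.5 in G1, where 9.31% of all tested genes were higher and 23.1% lower. In S, 1 (Dnmt3b) was higher and 2 (Tet2 and Tet3) lower, beside 9.64% and 14.6% of all genes. In G2/M, 1 (Dnmt3b) was higher and 1 (Tet2) lower, beside 11% and 16%. Tet2 was the one gene called in the same direction in all 3 phases. The G1 call of Uhrf1 was lost with phases set at 1000 UMIs per cell (0.33). The G1 call of Asxl1 was lost under all 4 alternatives tried, from -0.49 with phases on all UMIs to -0.33 with size factors fitted within G1. Those size factors also took Tet1 to -0.42, under the fold, and Dnmt3b to 0.60, past it. In S, Tet3 fell just short of the fold with scores per library (-0.49) and with size factors (-0.50).

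**Figure D3:**
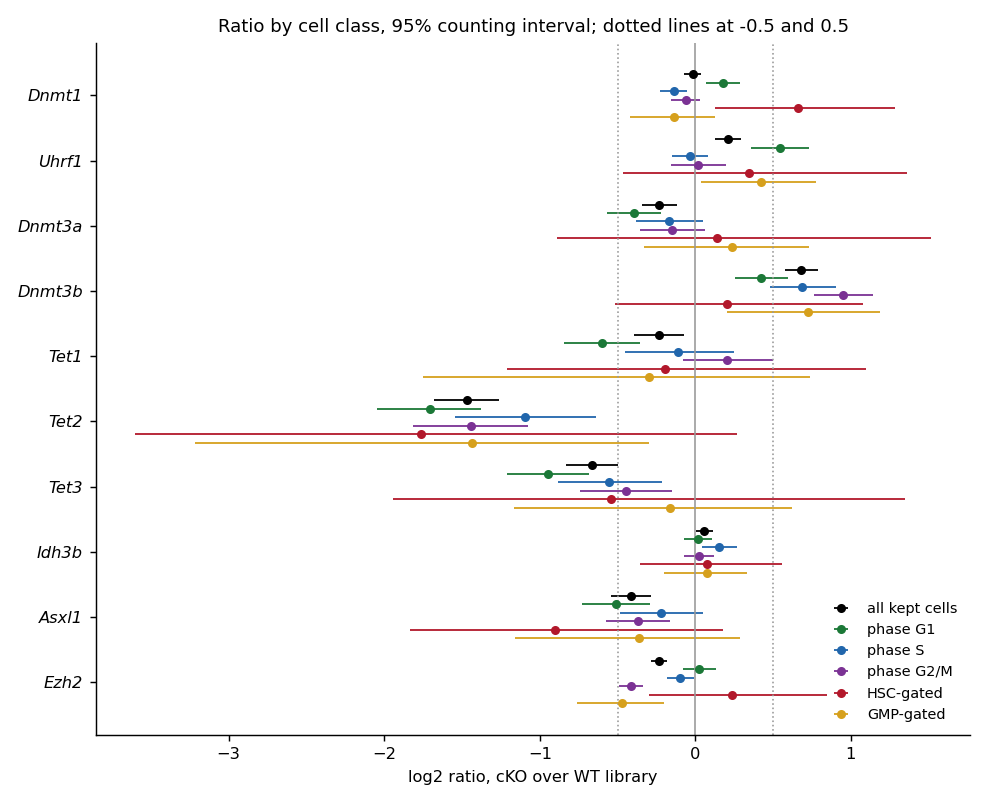
log2 ratio of cKO over WT for each gene over all kept cells, in each called phase and in HSC-gated and GMP-gated cells, with bars for the 95% counting interval and dotted lines at -0.5 and 0.5. All 6 Tet2 points lie to the left of -1, from -1.77 to -1.09, and the Tet2 intervals of both gates are wider than those of the phases.

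Lineages were set apart by marker gates on the thinned cells, each asking for at least 3 distinct markers of 1 lineage, and cells past several gates were left out. Most cells passed no gate, 5931 WT and 7766 cKO cells. Since the marker genes themselves differ between the libraries, gate sizes are not compared. The HSC gate (Procr, Mecom, Hlf and 7 further markers) held 151 WT and 312 cKO cells, and the GMP gate (Mpo, Elane, Prtn3, Ctsg, Ms4a3) held 1116 and 84. They were the 2 gates with at least 50 cells in each library.

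In HSC-gated cells, Tet2 was at 10.3 CPM in WT against 3.10 CPM in cKO cells, from 5 and 7 UMIs, and its log2 ratio of -1.77 (-3.60 to 0.27) spanned 0 at this depth. At 2000 UMIs, 0 of the 312 cKO cells had a Tet2 UMI, which allows a share of up to 0.962% by a limit of 3 counts, against 3.31% of WT cells (1.08 to 7.56). The exact interval of the cKO share reaches 1.18% and so overlaps that of WT. With a gate of 2 markers (581 WT and 1052 cKO cells) the Tet2 levels were 12.7 and 5.40 CPM, with a log2 ratio of -1.24 (-1.96 to -0.47). By phase within that gate the Tet2 ratio was -1.71 (-2.68 to -0.74) in G1. It spanned 0 in S (-0.66, -3.23 to 5.33) and in G2/M (-0.47, -1.91 to 1.68). Dnmt1 was at 61.7 CPM (30 UMIs) in WT cells against 98.8 CPM (223 UMIs) in cKO cells (log2 ratio 0.66, 0.13 to 1.28). The share of gated cells in G1 was 82.8% in WT and 67.0% in cKO. Among the HSC-gated cells in G1, Dnmt1 stood at 44.6 and 58.6 CPM with a ratio of 0.36 (-0.38 to 1.25), and with a gate of 2 markers over all phases the ratio was 0.10 (-0.14 to 0.35). Asxl1 was at 26.7 and 14.6 CPM, -0.90 (-1.83 to 0.18). Dnmt1 was thus the 1 gene higher by the fold and Asxl1 the 1 lower among the 6 of the 10 genes at 20 CPM or more, where 11.7% of all tested genes were higher and 25.4% lower. Tet2 and Tet3 (-0.54, -1.95 to 1.35) also passed the fold but lay below that minimum. With size factors fitted within the gate Tet3 was at -0.37, under the fold, and Uhrf1 at 0.51, past it. In the 2-marker HSC gate the intervals of these genes left out 0, at -0.82 (-1.44 to -0.15) for Tet3, from 30 and 74 UMIs, and 0.51 (0.08 to 0.98) for Uhrf1. Asxl1 was lower there as well (-0.54, -0.997 to -0.03). Among G1 cells of that gate Tet3 was at -1.29 (-2.10 to -0.44). The intervals of Asxl1 (-0.22, -0.88 to 0.51) and Uhrf1 (0.39, -0.26 to 1.13) spanned 0 in those G1 cells.

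Dnmt3b was at 34.9 CPM (17 UMIs) in WT against 41.2 CPM (93 UMIs) in cKO HSC-gated cells, and its log2 ratio of 0.20 (-0.52 to 1.08) spanned 0. With the 2-marker HSC gate it was 0.17 (-0.21 to 0.59), and within that gate -0.04 (-0.50 to 0.46) in G1, 0.28 (-0.76 to 1.74) in S and 0.82 (-0.14 to 2.15) in G2/M cells. A difference in Dnmt3b was not detectable at this depth in the stem cell gate.

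In GMP-gated cells, Dnmt3b stood at 19.5 CPM in WT cells against 31.9 CPM in cKO cells (log2 ratio 0.72, 0.20 to 1.19). Tet2 stood at 10.7 CPM (110 UMIs) in WT cells against 3.63 CPM (5 UMIs) in cKO cells (log2 ratio -1.43, -3.22 to -0.30). Ezh2 was at 120.0 and 86.3 CPM, -0.47 (-0.76 to -0.20), and Uhrf1 at 40.3 and 53.7 CPM, 0.42 (0.04 to 0.77). The phases of these cells differed as well, with 28.2% in S and 47.0% in G2/M in WT against 39.3% and 29.8% in cKO, and their part in both ratios was not tested. Dnmt3b was the 1 gene past the fold among the 6 genes at 20 CPM or more, where 12.2% of all tested genes were higher and 12.5% lower. Tet2 had the same direction in both gates and in the cells of no gate, where it stood at 10.4 CPM in WT against 3.74 CPM in cKO (-1.47, -1.71 to -1.23). In those ungated cells Dnmt3b had a ratio of 0.52 (0.40 to 0.65) and Asxl1 of -0.51 (-0.66 to -0.36). Tet3 had a ratio of -0.71 (-0.91 to -0.51) and Tet1 of -0.53 (-0.71 to -0.35), but the 3 TET genes lay below 20 CPM there.

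Within a library the genes also differed between lineages. Tet1 was higher in HSC-gated than in GMP-gated cells in both, at 18.5 (9 UMIs) against 6.63 CPM (68 UMIs) in WT (log2 ratio 1.55, 0.29 to 2.49) and 16.8 (38 UMIs) against 5.08 CPM (7 UMIs) in cKO (1.65, 0.55 to 3.14). With 2 markers the ratios were 1.13 (0.45 to 1.78) and 1.09 (0.14 to 2.42), whereas among G1 cells both intervals spanned 0, from -0.14 to 3.28 in WT and from -0.24 to 4.92 in cKO, where only 26 GMP-gated G1 cells with 2 Tet1 UMIs were left. Dnmt3b was higher in WT HSC-gated than in WT GMP-gated cells by 0.88 (0.03 to 1.56), and by 0.70 (0.25 to 1.13) with 2 markers, but its interval spanned 0 among G1 cells (0.56, -0.50 to 1.45). In cKO the Dnmt3b intervals spanned 0 as well, at 0.36 (-0.16 to 0.92) and, with 2 markers, 0.23 (-0.22 to 0.74). Ezh2 and Dnmt1 were lower in WT HSC-gated than in WT GMP-gated cells, by -0.85 (-1.42 to -0.36) and -0.70 (-1.29 to -0.20), and among G1 cells by -1.20 (-2.15 to -0.46) and -0.97 (-1.82 to -0.28). With 2 markers these differences shrank to -0.43 (-0.68 to -0.20) and -0.27 (-0.53 to -0.03). In the cKO library the same ratios were -0.14 (-0.48 to 0.21) and 0.10 (-0.22 to 0.43). Uhrf1 was lower in HSC-gated than in GMP-gated cells by -0.62 (-1.09 to -0.14) in cKO and, with 2 markers, by -0.68 (-1.16 to -0.25) in WT, where the 3-marker interval spanned 0 (-0.54, -1.51 to 0.20). Among G1 cells its ratio was -1.34 (-3.14 to -0.17) in WT, from 5 and 64 UMIs. In cKO it was -1.61 (-2.56 to -0.64), from 21 and 20 UMIs.

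The remaining 3-marker gates did not hold 50 cells in both libraries, but 4 of them did with 2 markers. In the 2-marker gate of lymphoid-primed progenitors (LMPP, 705 WT and 170 cKO cells), Tet1 was at 21.7 CPM (67 UMIs) in WT against 6.96 CPM (11 UMIs) in cKO, a log2 ratio of -1.58 (-2.71 to -0.71). In the 3-marker LMPP gate of WT it was at 10.5 CPM on 10 UMIs, so the WT level depended on the gate. With 2 markers Uhrf1 was higher in cKO LMPP cells, at 31.7 and 50.6 CPM (0.68, 0.23 to 1.12). Tet2 was lower, at 9.05 and 1.90 CPM from 28 and 3 UMIs (-2.06, -4.62 to -0.56). Phases were counted for the 3-marker LMPP gate, where 63.8% of 229 WT and 43.2% of 44 cKO cells were in G1. The part of phase in these ratios was not tested. In the 2-marker monocyte and dendritic gate (476 and 189 cells) Tet2 had a ratio of -1.38 (-2.68 to -0.36) and Tet1 of 0.02 (-0.92 to 0.90). Dnmt3b was higher in cKO in the 2-marker megakaryocyte gate (206 and 51 cells), at 18.3 and 51.9 CPM (1.49, 0.60 to 2.45), and in the erythroid one (165 and 110 cells), at 14.4 and 29.8 CPM (1.01, 0.08 to 2.13). Its intervals spanned 0 in the LMPP (0.53, -0.04 to 1.09) and monocyte and dendritic gates (0.29, -0.34 to 0.90). For Tet2 the megakaryocyte (-0.41, -3.09 to 1.51) and erythroid intervals (-1.36, -3.35 to 0.31) did so too.

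Levels in the 3-marker gates of single libraries are given as values. The LMPP gate of WT (229 cells) carried Dnmt3a at 34.7 CPM against 22.4 CPM in the WT GMP gate, a log2 ratio of 0.65 (0.06 to 1.16), and with 2 markers the levels were closer, at 30.7 and 23.8 CPM. In the monocyte and dendritic gate of WT (142 cells), Dnmt3b was at 5.57 CPM, 5 UMIs, against the 19.5 CPM of GMP-gated cells (-1.67, -3.45 to -0.56). That difference rests on the gate, since with 2 markers the levels were 19.7 and 20.04 CPM. Tet3 was at 22.3 CPM there, above the 10.9 CPM of the GMP gate (1.06, 0.26 to 1.72), and at 17.0 against 10.8 CPM with 2 markers. Neutrophil-gated WT cells (54 cells) had 0 UMIs of Dnmt3a, Dnmt3b and Tet1, which allows up to 7.90 CPM, and Dnmt1 at 39.5 CPM (22.1 to 65.1). Neutrophil markers took a median of 1024 of the 2000 UMIs of these cells, which lowers the CPM of every other gene, so no order against other gates is read from them. The B-cell gate of cKO (68 cells) held Uhrf1 at 122 CPM (92.8 to 158) and Ezh2 at 175 CPM (139 to 217), with 38.2% of its cells in G1. In WT 3-marker gates of at least 50 cells Tet2 ran from 4.99 to 11.1 CPM, and in the 3 such cKO gates from 2.11 to 3.63 CPM, so these ranges did not meet, although several of the intervals overlap.

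**Figure D4:**
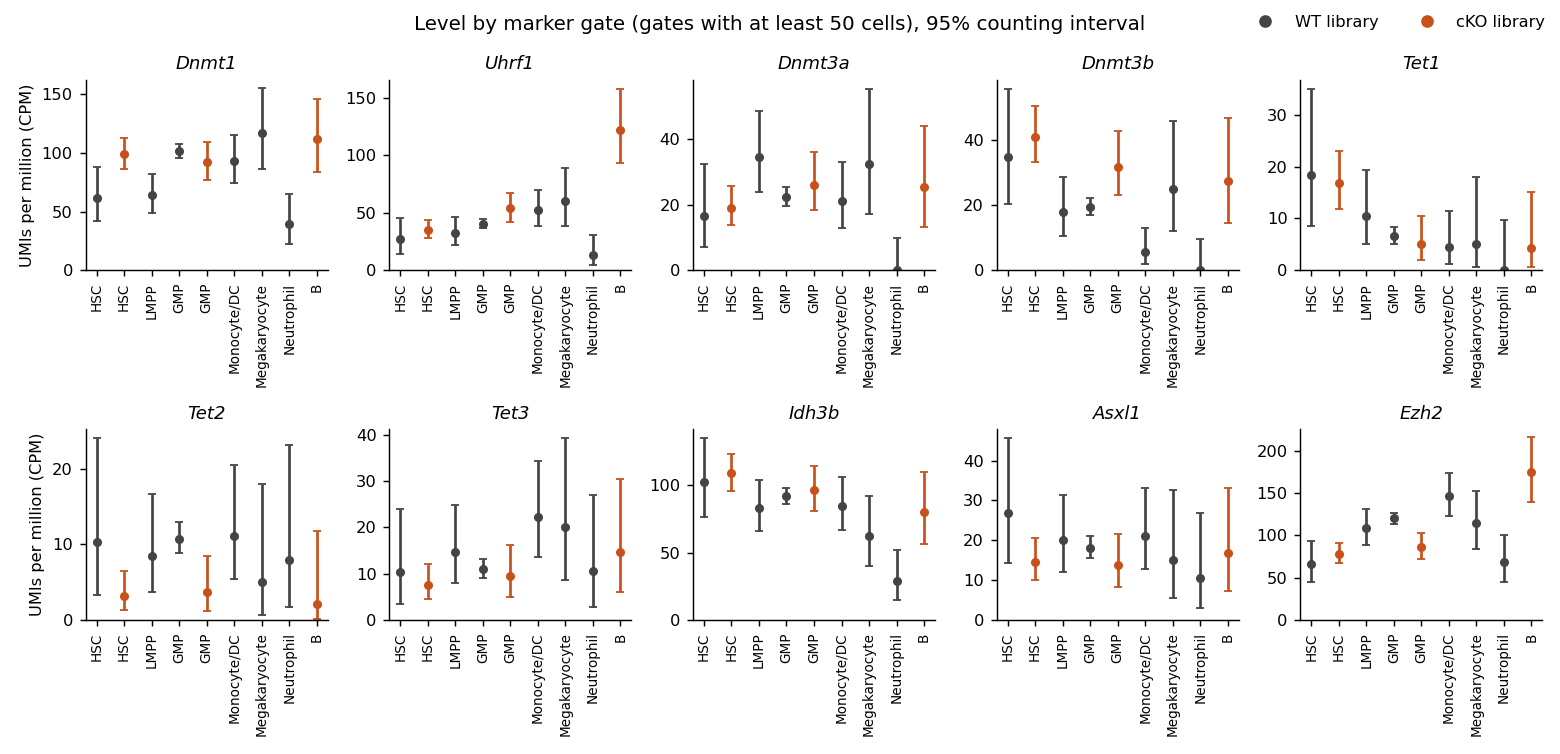
Level in CPM of each gene in marker gates with at least 50 cells, coloured by library, with bars for the 95% counting interval and every axis from 0. The Tet1 point of the HSC gate is the highest in both libraries, on 9 UMIs in WT, and with 2-marker gates, not plotted, WT LMPP (21.7 CPM) stood above WT HSC (16.2 CPM). The Neutrophil gate is at 0 for Dnmt3a, Dnmt3b and Tet1, and the B gate has the highest Uhrf1 and Ezh2 points.

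How the genes were spread over cells depended on depth. At 2000 UMIs a WT cell carried on average 0.876 UMIs of the 10 genes together and a cKO cell 0.857, and 43.8% and 43.9% of cells carried none. Dnmt1 was seen in 16.0% of WT and 16.2% of cKO cells, Uhrf1 in 6.51% and 8.27%, Ezh2 in 18.3% and 16.5%, Idh3b in 16.8% and 18.2%, and Asxl1 in 3.99% and 2.97%. In neutrophil-gated WT cells the share was 9.26% for Dnmt1 and Ezh2 and 0% for Dnmt3a, Dnmt3b and all 3 TET genes, where 0 of 54 cells allows up to 5.56% by the limit of 3 counts and the exact interval reaches 6.60%. With 1024 of 2000 UMIs taken by neutrophil markers, the nearer depth is that of all WT cells at 1000 UMIs, 8.05% for Dnmt1 and 10.1% for Ezh2. The 9.26% rests on 5 of 54 cells for each gene (3.08 to 20.3). Of these cells 66.7% were in G2/M, against 28.6% of all WT cells, so neither likeness nor difference is read from the shares.

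Partner genes of the 10 were compared over all kept cells, from a fixed list of 73 genes in 6 roles. At least 5 CPM in either library was reached by 63, of which 3 were higher and 11 lower by at least 0.5, with a median log2 ratio of -0.10. Among maintenance factors and readers of methylation, 14 were measured, 2 higher and 2 lower. Cdca7, which works with the remodeler Hells in heterochromatin methylation, had 153 CPM in WT against 230.2 CPM in cKO (log2 ratio 0.59), and Hells at 112.8 and 165 CPM (0.55). Kdm2b, a CpG-binding demethylase, was at 27.6 and 18.3 CPM (-0.59), and Setd2, which writes H3K36 methylation, at 32.0 and 22.5 CPM (-0.51). Of 8 genes of demethylation and repair, 2 were lower, Gadd45b with 11.6 and 5.06 CPM (-1.19) and Gadd45a with 16.5 and 10.3 CPM (-0.68). Xrcc1 (0.10) and the TET partner Ogt (-0.27) stayed under the fold. Of 10 PRC2 and H3K27 genes, 3 were lower: Ezh1, the paralog of Ezh2, at -0.83, the demethylase Kdm6a at -0.74 and Jarid2 at -0.57. The core subunit Suz12 (-0.22) and Rbbp7 (0.44) stayed under the fold, and so did all 5 measured genes around Asxl1, from Mbd6 at -0.48 to Foxk2 at 0.28, with Asxl2 at -0.10 and Hcfc1 at -0.03.

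Among 15 genes of cofactor supply, Idh1 alone passed the fold with totals as the scale. Idh1, the cytosolic enzyme that makes alpha-ketoglutarate, stood at 33.8 CPM in WT cells against 9.36 CPM in cKO cells (log2 ratio -1.85, -1.98 to -1.73). Idh3a, the partner subunit of Idh3b, was at 92.4 and 122.8 CPM (0.41), and the other subunit Idh3g at 160.3 and 171 CPM (0.10). Of 11 other clonal haematopoiesis genes, 1 was higher and 3 lower. Trp53, which encodes p53, stood at 169 and 274 CPM (0.69), while the kinase Jak2 had a ratio of -0.83, the ubiquitin ligase Cbl of -0.76 and the corepressor Bcor of -0.64. Against 8.97% higher and 17.7% lower among all genes, the 3 and 11 of 63 are no larger shares. Under the other scalings 5 were higher and 8 lower, because Rbbp7 and Idh3a passed the fold and Setd2, Kdm2b and Jarid2 fell under it. The shares of all genes moved too, to between 12.6% and 12.9% higher and between 13.2% and 13.4% lower.

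The ratio of Idh1 was not the same size in each class of cells. In ungated cells it stood at 19.2 CPM in WT against 8.98 CPM in cKO (-1.09, -1.26 to -0.93), in GMP-gated cells at 69.5 and 24.7 CPM (log2 ratio -1.48), and in HSC-gated cells its interval spanned 0 (0.15, -0.95 to 1.64). Trp53, Cdca7 and Gadd45b had ratios of 0.67, 0.59 and -1.23 in ungated cells. Gadd45a was lower there (-0.87) but higher in GMP-gated cells, at 12.2 and 50.8 CPM (2.06, 1.61 to 2.49). By phase, Cdca7 and Hells, both in the S gene list, had ratios of 0.84 and 0.88 in G1. In S cells they fell under the fold, at 0.21 (0.15 to 0.27) and 0.20 (0.14 to 0.27).

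**Figure D5:**
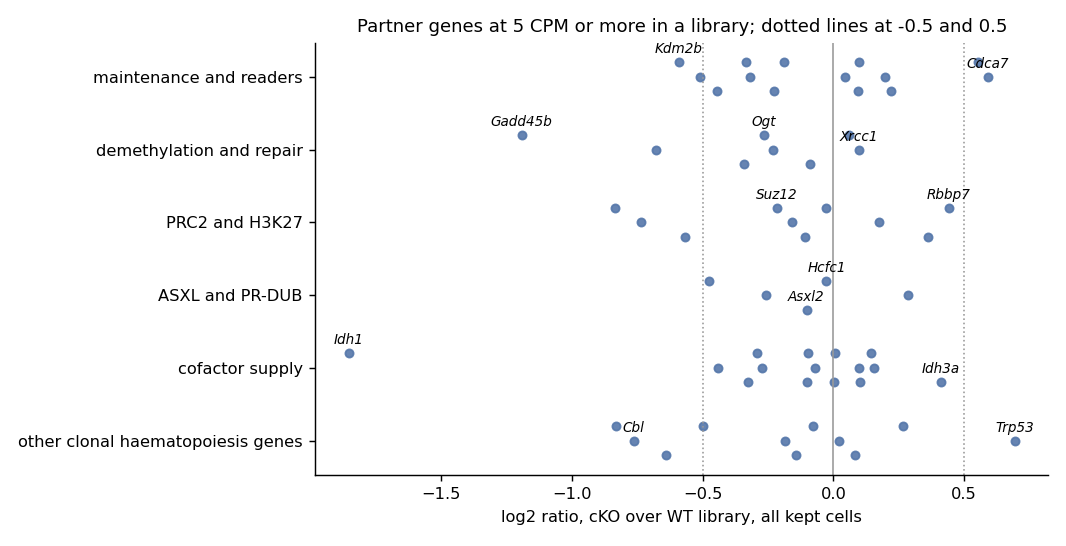
log2 ratio of cKO over WT over all kept cells for the 63 partner genes that reached 5 CPM in either library, by role, with dotted lines at -0.5 and 0.5. Each point is a gene. Idh1 at -1.85 and Gadd45b at -1.19 are the only points left of -1, and Trp53, Cdca7 and Hells lie to the right of 0.5.

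As a description of likeness, levels on a scale of log2(CPM + 10) were correlated over 15 classes of cells, 9 gates and 6 phases, among 5421 genes. The classes share cells and libraries, so no test applies. The closest to Uhrf1 were Pcna, the replication clamp (Pearson r 0.96), Siva1 (0.92) and the replication licensing factor Cdc6 (0.92), of which Pcna and Cdc6 belong to the S list. The closest to Ezh2 were the nuclear lamin gene Lmnb1 (0.94), the histone chaperone Dnajc9 (0.93) and Rad51ap1 (0.91), the last also in the S list. Dnmt1 lay closest to Pradc1 (0.93), Dpy30 (0.93) and Mrpl18 (0.92), Dnmt3a to Chd8, Pim3 and Mrpl34 (0.95 each), and Dnmt3b to Tfam (0.95), Rabac1 (0.94) and Sod2 (0.94). Idh3b lay closest to Hadh (0.98), Rbm7 (0.97) and Ergic3 (0.97). The TET genes and Asxl1 were below the level of 20 CPM set for this step.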

How the data were processed

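Single-cell RNA was measured in 1 WT and 1 cKO library. UMI counts per gene and barcode were deposited, made by the authors with Cell Ranger 6.0.0 on mm10. The labels name version 2 of the 3-prime kit, the study's methods version 3. Cells were kept by the study's limits (over 200 genes, under 4000 genes and 10% mitochondrial UMIs in WT, under 4500 and 5% in cKO, under 5% hemoglobin UMIs). Barcodes were scored against simulated pairs, and those with the highest scores were removed as doublets. Their share was set beforehand at 0.8% per 1000 barcodes, which gave 7.09% and 7.41%. Gates, phases and shares used cells thinned to 2000 UMIs (205 WT and 105 cKO cells were too shallow), and levels used all UMIs of those cells. A gate asked for 3 distinct markers, and for 10 UMIs for GMP and neutrophil. Cavin2 and Trbc1 were not matched. Phases followed the Seurat rule with 42 S and 54 G2/M genes. Ratios used 0.5 prior counts. Intervals were exact (conditional binomial for ratios, Poisson for CPM, Clopper-Pearson for shares, scipy 1.17.1), and a share of 0 is limited by 3 counts. With 1 library per group no test was possible. The code was tested on simulated data. Scaling alternatives used edgeR 4.0.16. Coordinates came from GENCODE. Members, lists and the rule for named genes (per role the highest and lowest ratio at 20 CPM or more, any past 1, and the 3 most alike genes) were chosen with earlier results of these data known. Gate UMI thresholds and the other partner genes named were chosen after the values were seen.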

Additional observations from a re-analysis of the deposited data

Results flagged for a closer look

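Dnmt1 differed in opposite directions in 2 phases. The cKO library was higher in G1 cells, with a log2 ratio of 0.1781, and lower in S cells, with -0.1389, and both counting intervals left out 0. The difference between the phases was not tested across samples, and both values are under the fold used for a call. Hells, Cdca7 and Pcna of the S gene list were higher in cKO G1 cells as well (0.88, 0.84 and 0.32). The S value shrank to -0.08 with phases on all UMIs and with size factors within the phase, and the G1 value ran from 0.13 to 0.36 under the alternatives, so the opposite directions are not firm in S.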

How the results depend on the processing

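Counts of genes past the fold stayed within 1.5 times under 36 of 45 alternatives. With a fold of 1, 1 gene (Tet2) was past it over all cells against 3. With phases called at 1000 UMIs, 3 genes were past the fold in G1 against 5, and 1 passed 1 for S over G1 in WT against 3. With phases on all UMIs, 3 passed it in cKO against 1, and with each cell scaled to its own total 2 did. At 20 CPM or more, 4 partner genes were lower against 11. Under each of the other 3 scalings 5 partner genes were higher against 3, while 12.6% to 12.9% of all genes were, against 8.97%. These scalings were tried for the partner genes after seeing the data, as were their values by class of cells. Size factors, TMM and a total without mitochondrial and ribosomal protein genes raised every ratio over all cells by 0.10, which turned Dnmt1 from -0.02 to at most 0.09. Whether the intervals of Dnmt1 and Tet1 over all cells leave out 0 thus depends on the scaling. On all UMIs, the share of cells with a UMI was higher in cKO, not lower, for Dnmt3a by 7.26 percentage points, Tet1 by 3.68, Tet3 by 1.62, Asxl1 by 4.11 and Ezh2 by 18.0, since the cKO cells were deeper. The other values of single genes kept their place in 331 cases and moved in 55. Gates with 4 markers, gates at 1000 UMIs and GMP-gated G1 cells were not run as cKO over WT comparisons, because they left under 50 cells in a library. No paired analysis was possible because there is 1 library per genotype. Tet2 in the 3-marker cKO gates rests on at most 7 UMIs, which sets its wide intervals.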
